A study of Mus musculus with 36 samples.

Results

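The genes described here encode the proteins of the cytosolic ribosome, with their paralogs and a few retrocopies, in mouse intestinal organoids. Members were chosen by symbol alone, from the table of expression values: a symbol that opens with Rpl or Rps and a digit, or Rpsa, Rplp0, Rplp1 or Rplp2, without the S6 kinase genes. The rule found 90 of the 12652 genes listed. Of these, 77 encode the ribosomal proteins themselves (31 of the small subunit, 43 of the large subunit and 3 of the P stalk). A further 5 are paralogs (Rpl7l1, Rpl22l1, Rpl36al, Rps27l and Rps4l), and 7 are rows named as pseudogenes, retrocopies or further copies (Rpl14-ps1, Rpl31-ps12, Rpl32l, Rpl37rt, Rps15a-ps4, Rps15a-ps6 and Rps19-ps3). The last, Rps19bp1, encodes a protein that binds Rps19 and is not a ribosomal protein, so the name of the set does not hold for it. RefSeq types 5 members, Rps4l among them, as transcribed pseudogenes. Fau, whose product is a fusion of a ubiquitin-like protein with a ribosomal protein, falls outside the rule.

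The organoids came from 2 male wild-type C57BL/6 littermates aged 8 weeks, 1 culture per mouse. RNA was purified in duplicate for each of 9 conditions, each from 3 pooled wells, which gave 36 libraries in all, 4 per condition, and n = 2 mice. At 6 h and again at 24 h the treated cultures held all-trans retinoic acid (atRA, 10 µM), its isomer 9-cis retinoic acid (9cisRA, 10 µM) or an antagonist of retinoid X receptors (RXRi, 5 µM), and the vehicle cultures held DMSO. The starting cultures (0 h) had no DMSO. All cultures were seeded as single cells and grown for 3 days with inhibitors of ROCK and GSK3 and with medium conditioned by Wnt3a-producing cells. Treatment began with the change to medium that lacked these agents, so a difference between a later DMSO culture and 0 h holds vehicle, medium and time together, and these cannot be told apart. Duplicates share a culture, and the spread between mice is that of 2 animals of 1 litter.

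Ribosomal proteins are made in near-equal numbers and are assembled with ribosomal RNA in the nucleolus into a small subunit, which decodes the message, and a large subunit, which joins the amino acids. In mammals most of their messages begin with a pyrimidine tract (the 5′ terminal oligopyrimidine, or TOP, motif), through which mTOR and the RNA-binding protein Larp1 set their translation and stability together. In the intestine, ribosome production is known to be high in dividing crypt cells and lower in cells that leave the crypt. Retinoic acids act through retinoic acid receptors paired with retinoid X receptors. 9cisRA binds both kinds of receptor, and atRA mainly the first.

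Recovered reads summed to 19.6 to 30.7 M per library over the listed genes, and a member's median over the 36 libraries was 349 (Rps4l, with 195 in its lowest library) to 53699.5 reads, so counting error at the median was 5.35% of the value or less. RPKM, which divides a gene's reads by its length and by a measure of the library's depth, allows levels to be compared between genes per length. All 5 epithelial markers were listed in every group, at a summed 4531 to 8243 RPKM. Of markers of other cells, 0 of 5 for fibroblasts, 0 of 3 for endothelium and 1 of 4 for immune cells (Lyz2, 0.18 to 2.53 RPKM) were listed. In whole cultures, fewer cells of a type and less RNA per cell cannot be told apart. Libraries of the same mouse and condition differed in the members together: the median member shifted by up to 0.253 on the log2 scale between duplicates, and by over 0.15 in 4 of 18 pairs. The 396 other genes with transcripts as short moved almost as far in those pairs, for example by 0.188 where the members moved by 0.185 (0 h, mouse 1). Shifts of this size are as large as several of the median changes given here. Effects were therefore fitted on the average of each pair of duplicates.

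Sequence around the annotated start is shown for the 3 genes that fell most over the 24 h in DMSO (Rps2, Rplp2 and Rpl12), for Rpl39, which was not called over that time, and for the paralogs Rpl22l1 and Rps27l beside their main genes Rpl22 and Rps27. Each line holds 30 bases before the start and the first 30 transcribed bases, 5′ to 3′, from RefSeq promoters on GRCm38.p6. Capitals mark the longest unbroken run of C and T, or the first of equally long runs, as in Rps27l.
Rps2: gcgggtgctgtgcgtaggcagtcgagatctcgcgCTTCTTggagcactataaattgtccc
Rplp2: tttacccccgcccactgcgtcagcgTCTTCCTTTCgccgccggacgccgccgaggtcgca
Rpl12: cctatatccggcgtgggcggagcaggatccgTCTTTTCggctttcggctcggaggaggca
Rpl39: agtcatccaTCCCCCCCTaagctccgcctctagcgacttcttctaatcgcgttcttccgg
Rpl22l1: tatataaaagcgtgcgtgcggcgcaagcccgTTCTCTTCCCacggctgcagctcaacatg
Rpl22: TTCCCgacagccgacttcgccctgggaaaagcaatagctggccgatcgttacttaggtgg
Rps27l: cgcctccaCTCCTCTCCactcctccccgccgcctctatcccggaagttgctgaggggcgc
Rps27: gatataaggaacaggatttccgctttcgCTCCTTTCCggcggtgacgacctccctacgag
These windows lie at chr17:24720033-24720092 (plus strand, Rps2), chr7:141447621-141447680 (plus, Rplp2), chr2:32961682-32961741 (plus, Rpl12) and chrX:37085193-37085252 (minus, Rpl39). Those of the paralogs lie at chr3:28805478-28805537 (plus, Rpl22l1), chr4:152325696-152325755 (plus, Rpl22), chr9:66946056-66946115 (plus, Rps27l) and chr3:90213619-90213678 (minus, Rps27). Rpl22 and Rps27l have 2 annotated starts each, of which the first listed is shown. An entry was found for 65 of the 90 members. A run of at least 8 pyrimidines within 30 bases of the start stood in 36 of the 65 (55.4%), against 2519 of 10003 (25.2%) of the other genes of the expression table with an entry. Of the windows shown, those of Rplp2, Rpl39, Rpl22l1, Rps27l and Rps27 hold such a run, and those of Rps2, Rpl12 and Rpl22 do not. The runs of Rpl39 and Rps27l open at -21 and -22 and end before the start, so they lie outside the annotated transcript. At the second start of Rps27l the longest run is 5. Rpl12 has a run of 7 from transcribed base 2. Runs of at least 8 were counted alike on either side of the start. Over all members with an entry, the median log2 fold change at 24 h in DMSO over 0 h was -0.31 for the 36 with such a run and -0.33 for the 29 without. The motif CCGGAAG, on either strand over the 300 bases from 250 before to 50 after the start, was found in 25 of the 65 (38.5%) and in 2017 of 10003 (20.2%) of the other expressed genes. TATAAA, on either strand within 50 bases of the start, was found in 5 of 65 (7.69%) and in 362 of 10003 (3.62%). These are matches of letters and not tested sites.

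All 90 members stood at 1 RPKM or more in every library, so all passed the filter on low values. The median member averaged 256.5 RPKM over the 36 libraries, against 9.24 RPKM for the median listed gene, and 19 members were among the 100 highest genes. 8 members averaged over 1000 RPKM and held 31.3% of the members' summed RPKM. They included the stalk proteins Rplp1 (1528 RPKM) and Rplp0 (1357 RPKM), and Rpl4 (1465 RPKM), Rpl8 (1436 RPKM), Rpl7 (1108 RPKM), Rpl32 (1073 RPKM) and Rpl41 (1027 RPKM). Although the proteins are needed in near-equal numbers, the 77 ribosomal protein genes spread 47.2-fold in RPKM, and 47 of them lay within 2-fold of their median of 274 RPKM. The lowest was Rps15a at 32.4 RPKM, below the retrocopy row Rps15a-ps6 at 79.1 RPKM. The reads of near-identical copies can be split between rows, and the counting rule is not given in the sources used here, so the levels of Rps15a and of the pseudogene rows are uncertain.

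The members' share of the expression values was smaller at each later time in DMSO. Summed over the 90 members, they held 9.59 ± 0.088% of all RPKM at 0 h, 8.56 ± 0.103% at 6 h in DMSO and 7.0 ± 0.298% at 24 h in DMSO (SD, n = 2 mice). The 4 libraries of each stood at 10.1, 9.23, 9.52 and 9.53% at 0 h, at 8.74, 8.52, 8.53 and 8.44% at 6 h and at 7.47, 6.96, 6.94 and 6.64% at 24 h, with no overlap between the times. At 24 h it was smaller again with the retinoids. The share was 5.86 ± 0.042% with atRA, 5.67 ± 0.080% with 9cisRA and 6.67 ± 0.0074% with RXRi. The libraries stood at 5.84, 5.81, 5.88 and 5.89% with atRA and at 5.51, 5.72, 5.84 and 5.61% with 9cisRA, all below the lowest DMSO library. Those with RXRi, at 6.60, 6.73, 6.70 and 6.65%, overlapped DMSO. With 2 mice a group an exact permutation test cannot go below p = 0.333, and the shares were not tested otherwise. A share also falls when other genes rise. The RPKM of all genes summed to 496077 ± 17768 with atRA and 510701 ± 15505 with 9cisRA, against 452478 ± 4903 in DMSO at 24 h (SD, n = 2 mice). The members' own RPKM sum was 91.8% of DMSO with atRA and 91.4% with 9cisRA, while their share was 83.7% and 81.0% of that in DMSO.

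**Figure D1:**
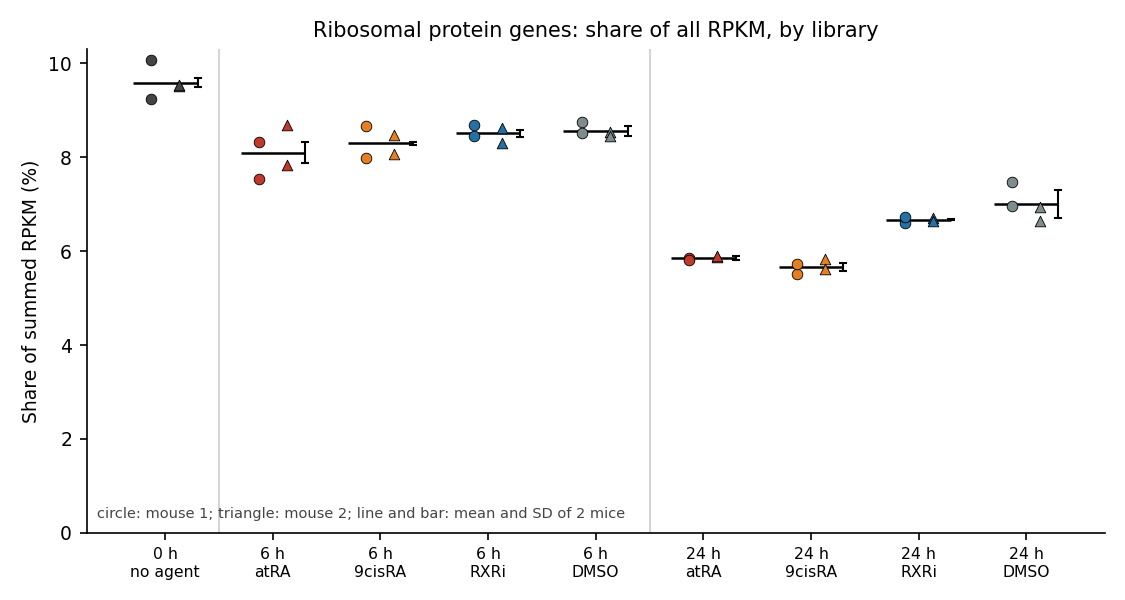
Each point is 1 library and gives the share of all RPKM (percent) held by the 90 members, with marker shape for the mouse, a line for the mean of the 2 mice and a bar for their SD; conditions run along the x axis by time. The 24 h libraries with atRA and 9cisRA, at 5.51 to 5.89%, sit below the 24 h DMSO libraries, at 6.64 to 7.47%, which sit below those of 6 h and 0 h.

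Over the 24 h in DMSO nearly the whole set fell. At 24 h 81 members were lower than at 0 h and none was higher (limma on log2(RPKM + 0.5), Benjamini-Hochberg adjusted over the 11361 genes tested, adjusted p below 0.05), where 30.3% of all tested genes were lower and 29.2% higher. The members' median log2 fold change was -0.32, beside -0.01 over all genes tested. For 67 members all 4 libraries at 24 h lay below all 4 at 0 h, as for 28% of all tested genes. The fall was shallow: only Rps2 fell past 1.5-fold. For 83 members the mean was lower at 6 h than at 0 h and lower again at 24 h. How many other genes fell at both steps was not counted. At 6 h 37 members were lower and none higher than at 0 h, beside 23.4% lower and 22.3% higher over all genes, with a median of -0.17. From 6 h to 24 h 29 were lower and none higher, beside 24.5% lower and 25.4% higher, with a median of -0.16. The first of these counts moved with single libraries of 0 h, to 16 without the first duplicate of mouse 1 and 56 without its second. The last moved with single libraries of 24 h DMSO, to 48 and 19 without the first and the second duplicate of mouse 1. For 24 h over 6 h the count was also 74 under quantile normalization, 76 with libraries scaled to the same RPKM sum and 80 scaled to the sum of other genes, settings that lowered the median of all genes to between -0.08 and -0.15, and 68 and 71 with corrections for gene length and for length and GC content. The same corrections gave 20 and 18 members for 6 h over 0 h. Neither was above the 23.4% of all genes lower in the main fit. Without mouse 1 the 6 h over 0 h count was 24, and without mouse 2 it was 7. The median of the 396 other genes with transcripts as short was -0.11 for 6 h over 0 h. It was 0.14 for 24 h over 6 h and 0.06 for 24 h over 0 h.

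Markers of cell types moved over the same time. Enterocyte markers (5 of 5 listed) summed to 1061 to 1608 RPKM at 0 h, 655 to 1553 RPKM at 6 h in DMSO and 7841 to 13168 RPKM at 24 h in DMSO. Stem cell markers (4 of 4) summed to 14.2 to 19.3 RPKM at 0 h, 8.98 to 11.4 RPKM at 6 h and 29.6 to 39.1 RPKM at 24 h. The rise by 24 h was mostly Olfm4, at a mean of 3.06 RPKM at 0 h and 21.8 RPKM at 24 h in DMSO. Over the same time Ascl2 went down, from 7.08 to 3.55 RPKM, while Lgr5 (0.76 to 0.94 RPKM) and Smoc2 (6.67 to 7.04 RPKM) moved little. Goblet cell markers (3 of 3) summed to 92.5 to 121 RPKM at 0 h, 90.6 to 124 RPKM at 6 h and 240 to 278 RPKM at 24 h. Paneth cell markers (3 of 3) summed to 50.5 to 104 RPKM at 0 h, 31.9 to 77.4 RPKM at 6 h and 156 to 245 RPKM at 24 h. The part of these cell types in the members' values was not tested.

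Among small subunit genes 29 of 31 fell between 0 h and 24 h in DMSO, beside 30.3% of all tested genes. Rps2, which lies near the entrance for the message, changed most. It stood at 211, 212, 214 and 192 RPKM at 24 h in DMSO, against 359, 299.9, 295 and 303 RPKM at 0 h, where the first duplicate of mouse 1 lay apart. The groups did not overlap, with a log2 fold change of -0.60 (SE 0.078, limma adjusted p = 2.44e-05). Rpsa, also known as a laminin receptor, had a log2 fold change of -0.46 (limma adjusted p = 0.000439). Rps28, chosen after its values were seen, averaged 293 ± 17.1 RPKM at 24 h and 398 ± 4.15 RPKM at 0 h (SD, n = 2 mice). Its log2 fold change was -0.44 (limma adjusted p = 2.35e-05), a call not checked with libraries left out. Rps27 (-0.16) was not called.

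Among large subunit genes 40 of 43 fell, and all 3 of the stalk, beside 30.3% of all tested genes. Rpl3, which lies by the peptidyl transferase centre, had 183, 174, 173 and 171 RPKM at 24 h in DMSO, against 255, 248, 243 and 237 RPKM at 0 h. No library overlapped, and the log2 fold change was -0.49 (SE 0.061, limma adjusted p = 1.84e-05). Rpl12, at the base of the stalk, averaged 262 ± 1.05 RPKM at 24 h and 368 ± 8.97 RPKM at 0 h (SD, n = 2 mice), a log2 fold change of -0.49 (limma adjusted p = 0.000281). The stalk binds the elongation factors. Its protein Rplp2 had 323, 274, 277 and 260 RPKM at 24 h in DMSO, against 532, 415, 354 and 376 RPKM at 0 h, where the first duplicate of mouse 1 was highest. Its log2 fold change was -0.55 (SE 0.129, limma adjusted p = 0.00243), beside -0.48 (limma adjusted p = 0.0238, and 0.065 without the second 0 h duplicate of mouse 2) for Rplp1 and -0.34 (limma adjusted p = 0.000155) for Rplp0. The large subunit genes not called were Rpl21 (-0.17), Rpl23 (-0.10) and Rpl39 (-0.05).

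The paralogs split. Rpl7l1, whose human counterpart is found on precursors of the large subunit, fell early, with 49.8, 52.5, 48.5 and 49.4 RPKM at 6 h in DMSO against 67.8, 62.2, 66.9 and 63.2 RPKM at 0 h. This was the lowest log2 fold change of any member at 6 h, -0.37 (SE 0.051, limma adjusted p = 7.11e-05), and at 24 h in DMSO it stood at -0.36 against 0 h (limma adjusted p = 5.26e-05). Rpl36al also fell by 24 h (-0.17, limma adjusted p = 0.00904), a call lost without the first 0 h or the second DMSO duplicate of mouse 1 (limma adjusted p up to 0.0903). Rps27l averaged 274 ± 1.08 RPKM at 24 h and 274 ± 18.3 RPKM at 0 h (SD, n = 2 mice), with a 95% interval for the log2 fold change of -0.18 to 0.18. For Rpl22l1 the interval at 24 h was -0.23 to 0.08. It had been called lower at 6 h in DMSO than at 0 h (limma adjusted p = 0.0217), with means of 179 RPKM at 0 h, 153 RPKM at 6 h and 170 RPKM at 24 h. The 6 h call held in 4 of 8 fits without 1 library, and was lost with the length corrections and with either mouse left out. Of the pseudogene and copy rows 6 of 7 fell by 24 h, beside 30.3% of all tested genes. Rps19bp1, the binding protein, had a log2 fold change of -0.31 (limma adjusted p = 0.000577). Fau (-0.15) was not called.

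**Figure D2:**
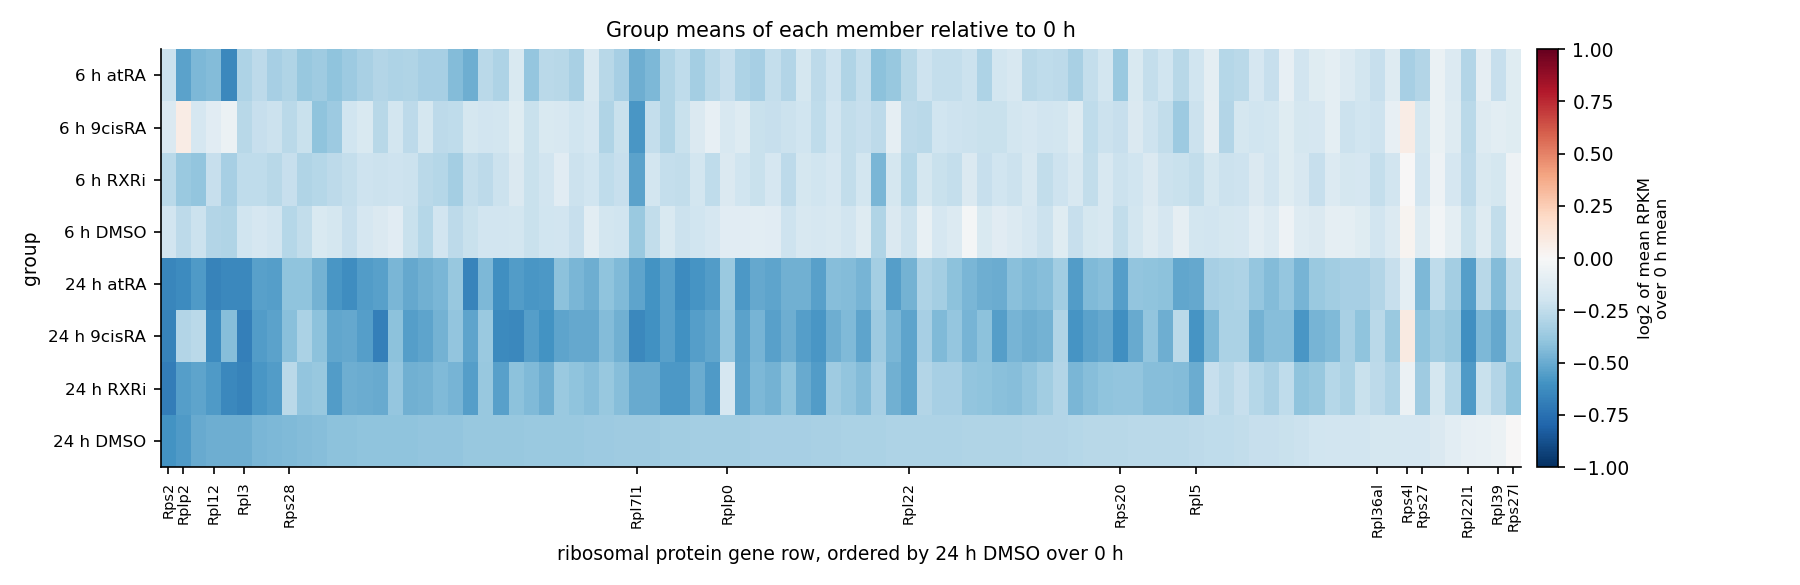
Columns are the 90 members, ordered by their 24 h DMSO value, and rows the 8 later conditions, with names under some of the members described in the text; colour gives the log2 ratio of the condition's mean RPKM to that at 0 h. The lowest row, 24 h DMSO, runs from Rps2 at the left (-0.60) to Rps27l at the right (0.00), and most members are darkest with atRA or 9cisRA at 24 h.

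At 24 h part of the set was lower with the retinoids than with DMSO. With 9cisRA 47 members were lower than in DMSO and none was higher, beside 23.5% lower and 24.4% higher over all tested genes, with a median log2 fold change of -0.16. With atRA 33 were lower and none higher, beside 18.6% lower and 19.4% higher, with a median of -0.15. With RXRi 20 were lower and 2 higher, beside 30.4% lower and 31.1% higher over all genes, so this count was not above the background. Its median was -0.10. The medians over all genes tested were within 0.01 of 0 in these 3 comparisons. The 3 compounds were set against the same 4 DMSO libraries, whose errors they share. All 4 libraries lay below all 4 of DMSO for 41 members with 9cisRA (21.1% of all tested genes), for 30 with atRA (19.8%) and for 24 with RXRi (29.8%), and all 4 lay above for 2 with RXRi (31.2%).

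The 2 mice did not weigh equally in these medians. With atRA the median was -0.22 in mouse 1 and -0.06 in mouse 2. With 9cisRA it was -0.24 in mouse 1 and -0.12 in mouse 2, and with RXRi -0.15 in mouse 1 and -0.04 in mouse 2. Without mouse 1, with its duplicates' spread in place of that between mice, the count fell to 1 with atRA and stood at 27 with 9cisRA, 2 of these higher. Without mouse 2 the counts were 29 with atRA and 39 with 9cisRA. With atRA, leaving out the first DMSO duplicate of mouse 1 gave 18 members, and so did a model without the mouse term. Rpl22l1, Rpl5, Rps27l and Rpl7l1 with 9cisRA, and Rpl22l1, Rps27l, Rps25 and Rpl5 with RXRi, were called with either mouse left out. With atRA that held for Rpl22l1, and the calls of Rpl5, Rps27l and Rpl7l1 were lost without mouse 1. The calls of Rpl39 with 9cisRA and of Rplp0 with RXRi were lost without mouse 2, and that of Rps28 with RXRi without either mouse. Across the members, fold changes ran with the GC content of the transcript (r = 0.54 with atRA, 0.64 with 9cisRA and 0.49 with RXRi over 86 members, which share libraries), as they did to a lesser extent over all other genes (0.26, 0.34 and 0.14). For 24 h in DMSO this correlation over the members was -0.43 against 0 h and -0.45 against 6 h, beside -0.11 over other genes in each. After a correction for gene length and GC content the counts were 42 with atRA and 64 with 9cisRA. Under quantile normalization they were 67 with atRA and 76 with 9cisRA. With libraries scaled to the same RPKM sum they were 77 with atRA and 81 with 9cisRA, where the median of all genes was -0.12 with atRA and -0.16 with 9cisRA. The median of the other genes with transcripts as short was -0.0003 with atRA, 0.05 with 9cisRA and -0.13 with RXRi.

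Markers of cell types also differed between the treatments at 24 h. Enterocyte markers summed to 16170 to 23002 RPKM with atRA, 19544 to 25768 with 9cisRA, 2431 to 4100 with RXRi and 7841 to 13168 in DMSO. Most of that sum was Fabp1, a fatty acid binding protein, at a mean of 17181 RPKM with atRA, 19123 RPKM with 9cisRA and 3062 RPKM with RXRi, against 7776 RPKM in DMSO. Not all 5 went the same way: Sis, sucrase-isomaltase, averaged 244 RPKM with atRA and 217 RPKM with 9cisRA, against 376 RPKM in DMSO. With atRA the apolipoprotein genes Apoa1 (680 RPKM) and Apoa4 (512 RPKM) were also below DMSO (773 and 653 RPKM), and with 9cisRA they were above it (1078 and 1204 RPKM). Stem cell markers (4 of 4 listed) summed to 12.2 to 19.7 RPKM with atRA, 12 to 14.8 with 9cisRA, 6.03 to 11.6 with RXRi and 29.6 to 39.1 in DMSO. The part of these cell types in the members' values was likewise not tested.

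**Figure D3:**
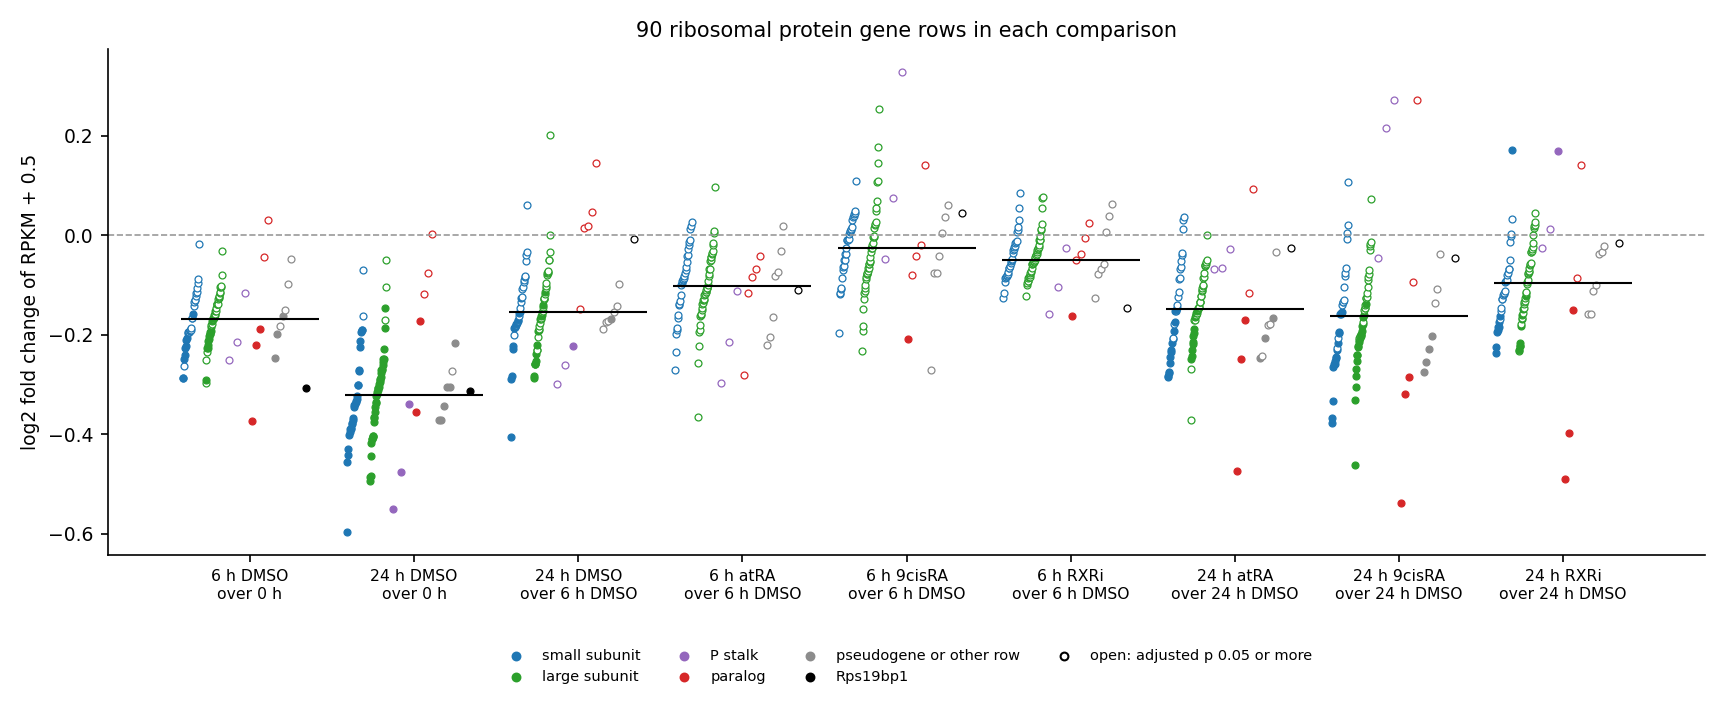
Each point is 1 member in 1 comparison, with the log2 fold change of RPKM + 0.5 on the y axis, colour for its class, filled where the adjusted p is below 0.05, and a line at the members' median. The cloud sits lowest for 24 h DMSO over 0 h (median -0.32), and the paralog Rpl22l1 is the lowest point for each compound at 24 h.

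Of the 31 small subunit genes 15 were lower with atRA (18.6% of all tested genes), 17 with 9cisRA (23.5%) and 8 with RXRi (30.4%, so the RXRi count was not above the background) at 24 h. Rps20, in the head of the subunit and chosen after its values were seen, had 95.9, 92.4, 101.6 and 105.7 RPKM with atRA and 97.1, 96.3, 91.2 and 94.96 RPKM with 9cisRA, against 125.4, 121.3, 120.7 and 111.8 RPKM in DMSO. Neither retinoid overlapped DMSO, with log2 fold changes of -0.28 (SE 0.053, limma adjusted p = 0.00132) and -0.33 (SE 0.053, limma adjusted p = 0.000224). With RXRi Rps20 was not called (-0.12, limma adjusted p = 0.0703). Rps3a1, on the platform of the subunit, averaged 423 ± 28.1 RPKM with atRA, 391.6 ± 17.7 RPKM with 9cisRA and 442 ± 9.40 RPKM with RXRi, against 505 ± 16.2 RPKM in DMSO (SD, n = 2 mice). Its log2 fold changes were -0.26, -0.37 and -0.19 (limma adjusted p = 0.006, 0.000367 and 0.0164). Rps3a1 was also chosen after its values were seen, and the 24 h calls of Rps20 and Rps3a1 were not checked with libraries left out. Rps25, which is needed for initiation at viral internal entry sites, had the lowest value of the small subunit genes with RXRi, -0.24 (SE 0.055, limma adjusted p = 0.00204), and was also lower with atRA (-0.22, limma adjusted p = 0.00755) and 9cisRA (-0.26, limma adjusted p = 0.00184).

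Among the small subunit genes Rps28 was higher with RXRi, at 309, 323, 354 and 336 RPKM against 284, 278, 303 and 307 RPKM in DMSO, all 4 above. Its log2 fold change was 0.17 (SE 0.057, limma adjusted p = 0.0187), a call that was lost without the mouse term in the model (limma adjusted p = 0.0724).

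Of the 43 large subunit genes 12 were lower with atRA (18.6% of all tested genes), 23 with 9cisRA (23.5%) and 9 with RXRi (30.4%) at 24 h. The RXRi count was again not above the background. Rpl5, which carries 5S ribosomal RNA with Rpl11 and can bind Mdm2, was lower with each compound. It stood at 157, 153, 167 and 170.1 RPKM with atRA, at 163, 154, 137 and 159 RPKM with 9cisRA and at 163, 165, 166 and 162 RPKM with RXRi, against 203.5, 192, 186.5 and 188 RPKM in DMSO. None of these overlapped DMSO, with log2 fold changes of -0.25 (limma adjusted p = 0.00417), -0.33 (limma adjusted p = 0.000411) and -0.23 (limma adjusted p = 0.00324), SE 0.057 each.

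Rpl39, which lines the exit tunnel for the new chain, had 264, 237, 291 and 299.6 RPKM with atRA, 292, 283, 207 and 249 RPKM with 9cisRA and 321, 314, 283 and 280.5 RPKM with RXRi, against 389, 320.1, 346 and 355 RPKM in DMSO. All 4 libraries lay below DMSO with both retinoids, and RXRi overlapped it. The call was made for 9cisRA alone (-0.46, SE 0.149, limma adjusted p = 0.0217), with atRA at -0.37 (limma adjusted p = 0.0658) and RXRi at -0.23 (limma adjusted p = 0.192). Rpl39 varied between duplicates more than most members, with an SD of 0.19 on the log2 scale beside a median of 0.10.

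No stalk gene was called lower with any compound at 24 h. Rplp0, its scaffold, was higher with RXRi, at 1331, 1377, 1435 and 1424 RPKM against 1308, 1194, 1228 and 1221 RPKM in DMSO. All 4 libraries lay above, with a log2 fold change of 0.17 (SE 0.055, limma adjusted p = 0.0167) that kept its direction and its call under each scaling tried. Without the second DMSO duplicate of mouse 1 the call was lost (limma adjusted p = 0.0642). With atRA it was at -0.03 and with 9cisRA at -0.05, not called. Rplp2 had a log2 fold change of 0.27 with 9cisRA (95% interval -0.01 to 0.55, limma adjusted p = 0.0985).

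The lowest fold change with each compound belonged to a paralog. Rpl22l1, whose message is known in mice to rise when Rpl22 is lost, fell with each of them in both mice. It stood at 123.5, 110.6, 123.4 and 130.4 RPKM with atRA, at 116.4, 119.9, 101.1 and 130.5 RPKM with 9cisRA and at 129.8, 130.8, 114.3 and 108.4 RPKM with RXRi, against 186.5, 157.8, 170.5 and 163.9 RPKM in DMSO at 24 h. No treated library reached the lowest DMSO library. The log2 fold changes were -0.47 (SE 0.071, limma adjusted p = 0.000218) with atRA, -0.54 (SE 0.071, limma adjusted p = 5.41e-05) with 9cisRA and -0.49 (SE 0.071, limma adjusted p = 4.58e-05) with RXRi, the lowest of all 90 members for each compound. All 3 calls held without any single library, with either mouse alone and under every other setting tried.

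Rpl22, an RNA-binding protein of the large subunit, averaged 95.3 ± 5.64 RPKM with atRA, 91.3 ± 6.94 RPKM with 9cisRA and 91.6 ± 1.60 RPKM with RXRi, against 106.5 ± 4.98 RPKM in DMSO (SD, n = 2 mice). Its log2 fold changes were nearer to 0, at -0.16 (limma adjusted p = 0.0512), -0.22 (limma adjusted p = 0.00849) and -0.22 (limma adjusted p = 0.00691). The 9cisRA call was lost after the correction for length and GC content (limma adjusted p = 0.077) and without mouse 1 (limma adjusted p = 0.307), and the RXRi call with either mouse left out (limma adjusted p up to 0.102). The difference between the paralogs' changes was not tested.

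Rps27l, a p53 target that can replace Rps27, had 217, 205, 239 and 264 RPKM with atRA, 209.5, 229, 204 and 235 RPKM with 9cisRA and 219, 213, 200.4 and 198 RPKM with RXRi, against 298, 252, 286 and 260.5 RPKM in DMSO. The highest atRA library overlapped DMSO, and the others did not. Its log2 fold changes were -0.25 (limma adjusted p = 0.0295), -0.32 (limma adjusted p = 0.00631) and -0.40 (limma adjusted p = 0.000882). The call with atRA was lost without the first DMSO duplicate of either mouse or the first atRA duplicate of mouse 2 (limma adjusted p up to 0.0796), and also without the mouse term or after the correction for length and GC content (limma adjusted p up to 0.0767). Rps27 itself was at -0.28, -0.23 and -0.18 (limma adjusted p = 0.00805, 0.019 and 0.0412), and without the first DMSO duplicate of mouse 1 its calls with 9cisRA (limma adjusted p = 0.0583) and RXRi (limma adjusted p up to 0.144, lost also without the second RXRi duplicate of mouse 2) were lost. The RXRi call of Rps27 was also lost under 6 of 13 other settings, among them quantile normalization, no mouse term and the length correction (limma adjusted p up to 0.239), and all 3 of its calls were lost with either mouse left out. Rpl7l1 was lower with each compound, at 45.0 ± 0.165 RPKM with atRA, 41.5 ± 1.21 RPKM with 9cisRA and 45.6 ± 0.848 RPKM with RXRi, against 50.7 ± 1.99 RPKM in DMSO (SD, n = 2 mice). Its RXRi call was lost under quantile normalization (limma adjusted p = 0.0768) and without mouse 1. Rpl36al was not called with any compound. Rps4l, typed as a pseudogene, was the only member that the 2 mice set apart: it stood at 16.2 to 26.8 RPKM in the 18 libraries of mouse 1 and at 8.54 to 14.7 RPKM in the 18 of mouse 2, in every condition. Of the 11361 genes tested, 4 (0.0352%) separated the mice in this way.

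**Figure D4:**
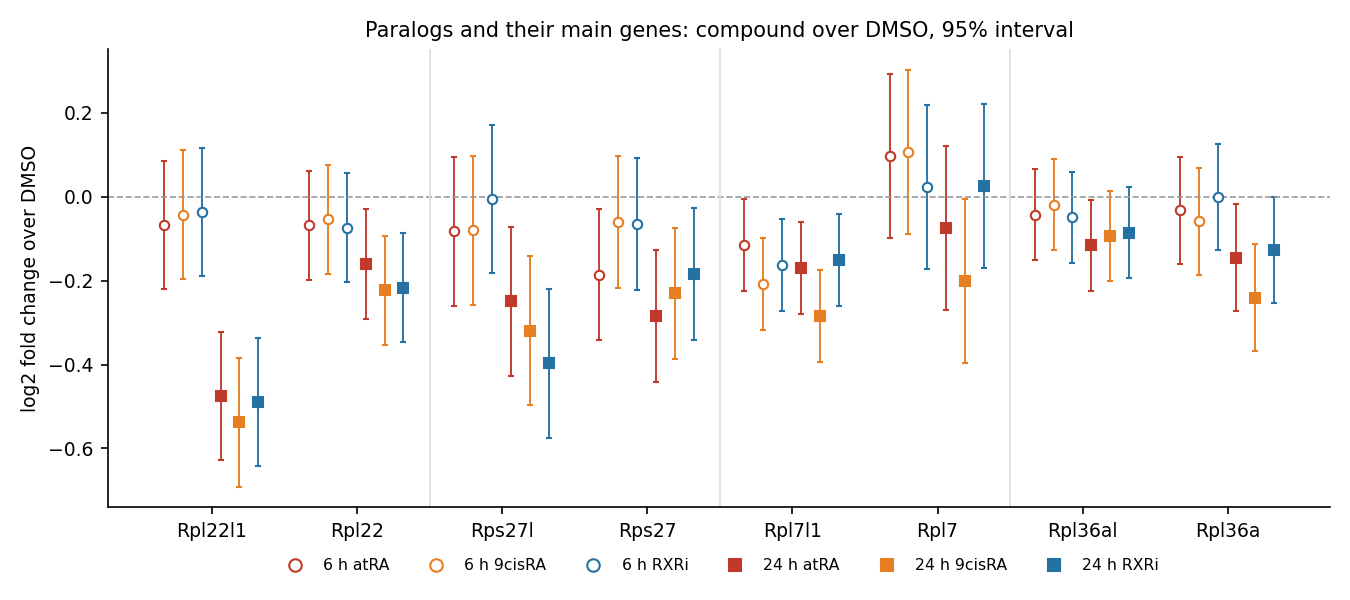
Log2 fold change over DMSO at 6 h (open circles) and 24 h (filled squares), with 95% intervals from limma, for 4 paralogs and their main genes, coloured by compound. At 24 h Rpl22l1 lies at -0.47 to -0.54 and Rpl22 at -0.16 to -0.22, and Rps27l lies lowest with RXRi (-0.40).

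**Figure D5:**
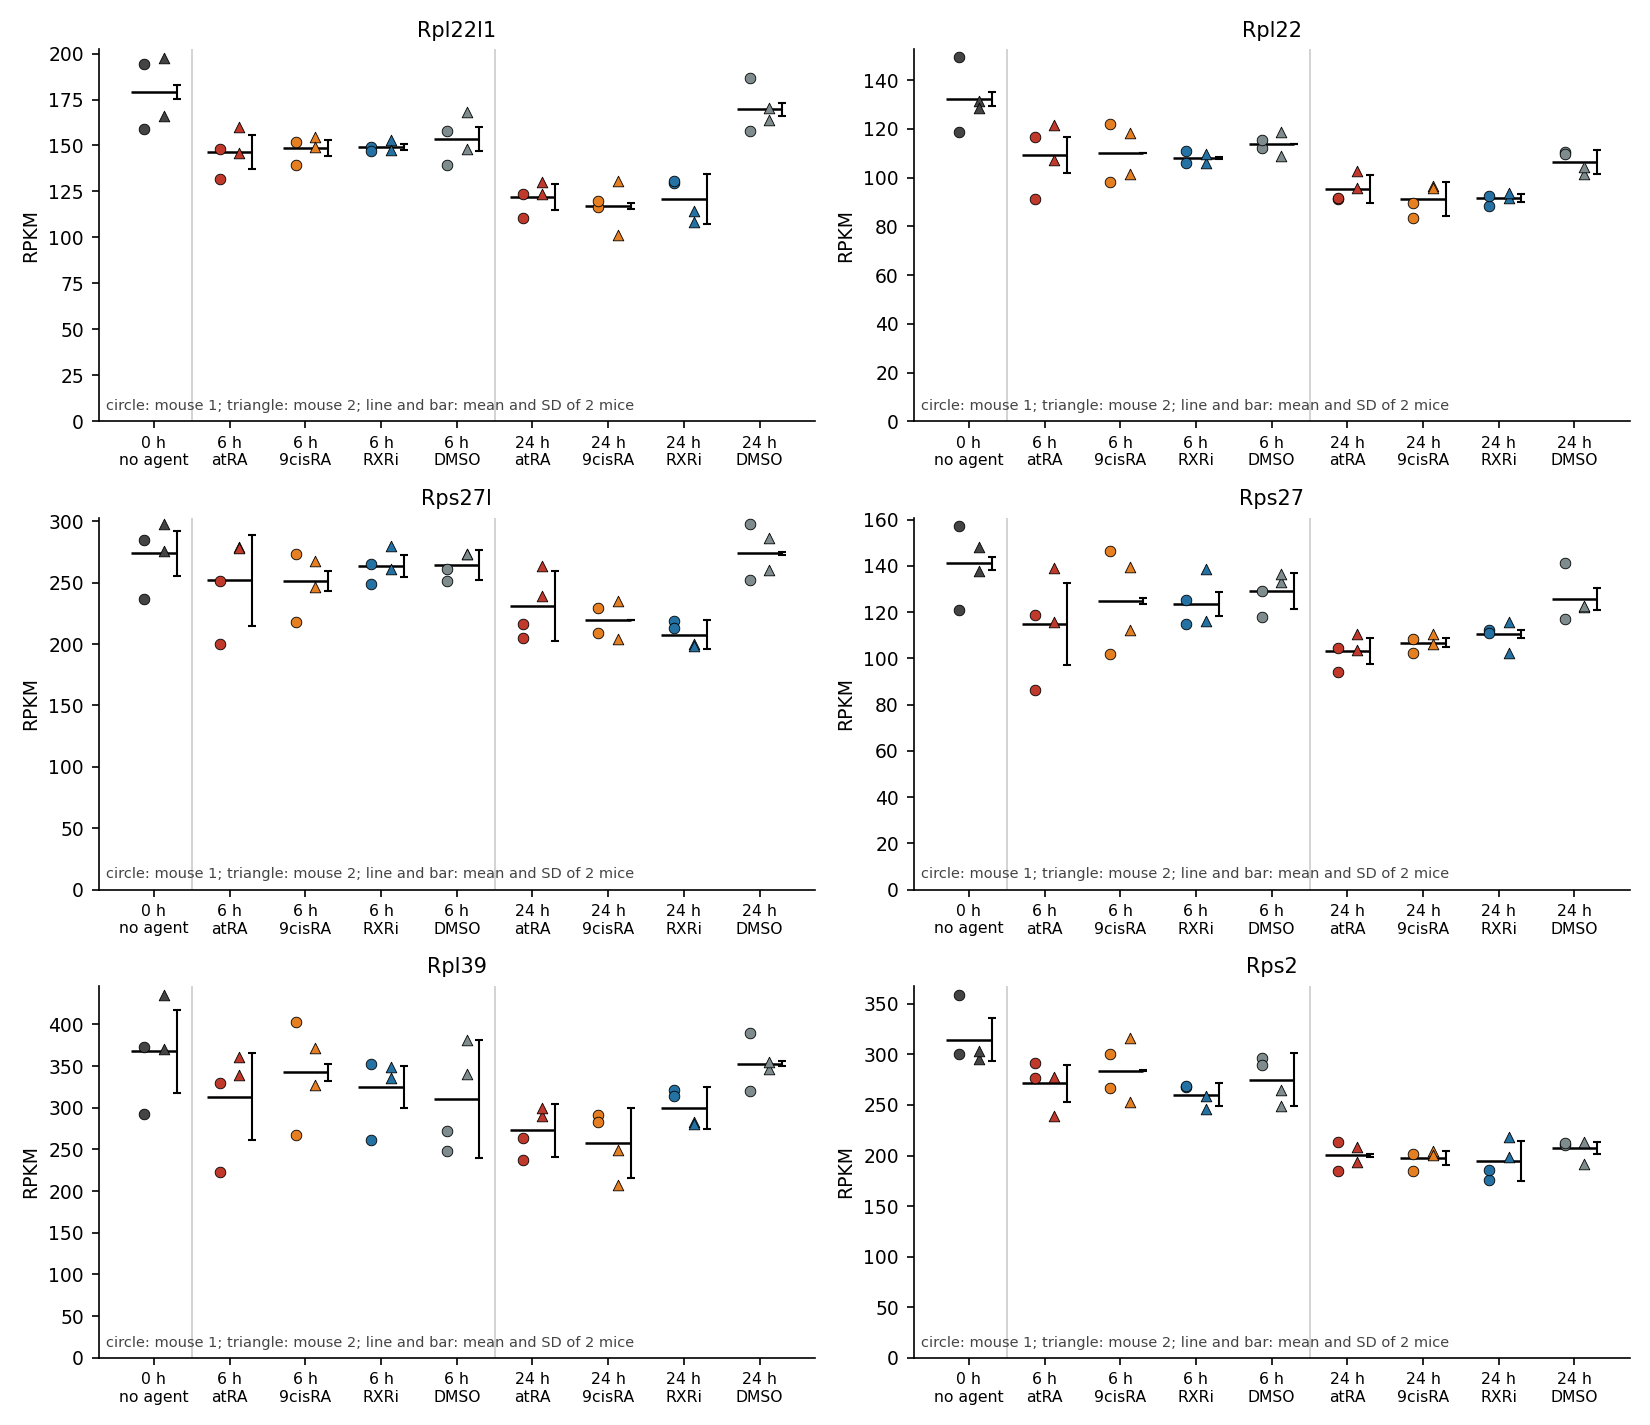
RPKM of Rpl22l1, Rpl22, Rps27l, Rps27, Rpl39 and Rps2 in each library (points, marker shape for the mouse) by condition, with a line at the mean and a bar for the SD of the 2 mice. The libraries treated for 24 h stand at 101.1 to 130.8 RPKM for Rpl22l1, below the DMSO libraries at 157.8 to 186.5 RPKM, while Rps2 separates 24 h from 0 h.

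At 6 h few members were called. With atRA none was (18 at an unadjusted p below 0.05), beside 1.87% of all tested genes lower. The members' median was -0.10 with atRA, -0.03 with 9cisRA and -0.05 with RXRi. For the other genes with transcripts as short it was -0.07, 0.005 and -0.06. The members' median with atRA rested on libraries whose duplicates disagreed: the member shift between duplicates was -0.253 in mouse 1 and 0.230 in mouse 2. Without the first atRA duplicate of mouse 2 the count was 14. With 9cisRA and with RXRi 1 member was lower, beside 3.03 and 14.6% of all tested genes, and it was Rpl7l1 in both. Rpl7l1 had 45.1, 40.4, 46.2 and 41.7 RPKM with 9cisRA and 45.1, 44.6, 45.3 and 43.7 RPKM with RXRi, against 49.8, 52.5, 48.5 and 49.4 RPKM in DMSO at 6 h, without overlap. Its log2 fold changes were -0.21 (SE 0.051, limma adjusted p = 0.0227) and -0.16 (SE 0.051, limma adjusted p = 0.0318). The 9cisRA call was lost without the second 9cisRA duplicate of either mouse (limma adjusted p up to 0.074). The RXRi call was lost without the second DMSO duplicate of mouse 1 (limma adjusted p = 0.0599), under quantile normalization and when libraries were scaled to the same RPKM sum, and both calls were lost without mouse 1. Rpl22l1, the most changed at 24 h, was at 132 to 160 RPKM in the 4 atRA, 140 to 154 RPKM in the 4 9cisRA and 147 to 153 RPKM in the 4 RXRi libraries, against 139 to 168 RPKM in DMSO at 6 h, which overlapped all of them.

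The change of an effect between 6 h and 24 h was itself tested. For 9cisRA it was lower at 24 h for 6 members, beside 7.9% of all tested genes. These were Rpl22l1 (-0.50), Rps20, Rps3a1, Rpl5, Rps18 and Rps4x. The call of Rpl5 was lost without the first 9cisRA duplicate of mouse 1 at 6 h (limma adjusted p = 0.055) and with either mouse left out. For atRA the effect was lower at 24 h for 1 member, Rpl22l1 (-0.41, limma adjusted p = 0.0167), beside 7.11% of all tested genes. For RXRi it was lower for 2, Rpl22l1 (-0.45, limma adjusted p = 0.00338) and Rps27l (-0.39, limma adjusted p = 0.0185), beside 16.5%. None of these counts was above the background. The call of Rpl22l1 with atRA was lost after the correction for length and GC content (limma adjusted p = 0.0993) and without mouse 1, and that of Rps27l with RXRi without the mouse term (limma adjusted p = 0.0545) and without mouse 2. The 9cisRA count depended on the scaling, with 34 members under quantile normalization, 60 on the same RPKM sum, 64 on that of other genes and 16 to 18 with the length corrections, and it ran from 2 to 13 without single libraries, the highest without the second 9cisRA duplicate of mouse 1 at 6 h. With atRA the count was 16 under quantile normalization, 22 on the same RPKM sum, 25 on that of other genes and 4 to 6 with the length corrections, and with RXRi it was 4 under each of these 3 scalings and 5 with the length corrections.

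The 2 retinoids differ only in the geometry of a double bond and were given at 10 µM each, so this 1 pair of compounds could be compared at both times. At 24 h no member differed between 9cisRA and atRA (3 at an unadjusted p below 0.05), beside 0.167% of all tested genes lower and 0.299% higher. The median difference was -0.02, and the 95% interval lay within 0.3 of 0 on the log2 scale for 77 of the 90 members. For Rpl22l1 it ran from -0.22 to 0.09. At the wide end Rplp2 had an interval of 0.06 to 0.62 (limma adjusted p = 0.315), and Rplp1 one of -0.07 to 0.64. At 6 h 3 members were higher with 9cisRA than with atRA, beside 1.55% of all genes. These were Rplp2 (0.62, limma adjusted p = 0.0325), Rpl36 (0.62, limma adjusted p = 0.0325) and Rpl13 (0.31, limma adjusted p = 0.0435). Rplp2 had 457, 358, 519 and 427 RPKM with 9cisRA against 217.5, 304, 369 and 263 RPKM with atRA, which overlapped. Rpl36, with 135, 107, 137 and 111 RPKM against 58.7, 79.9, 110.8 and 75.2 RPKM, was the member with the largest spread between duplicates, an SD of 0.24 on the log2 scale. Fold changes between the retinoids at 6 h ran with GC content, at r = 0.39 over 86 members and 0.54 over all other genes. The transcripts of Rpl36 (60.84% GC), Rpl13 (57.05%) and Rplp2 (54.98%) lay above the members' median of 50.8%. Without the mouse term no member was called, after the correction for length and GC content 1 was, and without single libraries the count ran from 0 to 13. The calls of Rplp2 and Rpl36 were lost with either mouse left out.

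Over the 36 libraries the members varied together. The median correlation of a member with the median of the others was 0.885, and it exceeded 0.8 for 67 members. The points share libraries and treatments. No such correlation was computed for other genes, so whether this is particular to the members was not tested. The 10 members under 0.7 were Rps4l (-0.02), Rps19bp1 (0.56), Rps14 (0.59), Rplp1 (0.60), Rpl41 (0.63), Rpl39 (0.64), Rplp2 (0.64), Rps19-ps3 (0.67), Rpl29 (0.69) and Rpl36 (0.696).

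Genes of the wider pathway give the setting. Of 99 genes of ribosome biogenesis, 95 were lower at 24 h in DMSO than at 0 h and none higher (median -0.46), and 87 were already lower at 6 h (median -0.42), where 37 of the 90 members were. Over all tested genes 30.3% were lower at 24 h and 23.4% at 6 h. Nop2, a ribosomal RNA methyltransferase, averaged 45.4 ± 2.64 RPKM at 6 h in DMSO and 77.1 ± 1.07 RPKM at 0 h (SD, n = 2 mice), a log2 fold change of -0.76 (limma adjusted p = 2.86e-07). From 6 h to 24 h 15 of the 99 were lower and 3 higher (median -0.03), beside 29 lower and 0 higher of the 90 members. Of all tested genes 24.5% were lower and 25.4% higher, so the count of biogenesis genes was not above the background. At 24 h 73 of the 99 were lower with atRA (1 higher), 81 with 9cisRA (1 higher) and 59 with RXRi (9 higher). The shares of all tested genes lower were 18.6% with atRA, 23.5% with 9cisRA and 30.4% with RXRi. Gnl3, the nucleolar protein nucleostemin, had log2 fold changes of -0.50, -0.70 and -0.57 (limma adjusted p = 2.1e-05, 8.95e-07 and 1.08e-06). Las1l, of the machinery that processes the internal spacer, rose with RXRi (0.58, limma adjusted p = 4.24e-06).

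Of 44 translation factors, 34 were lower and 2 higher at 24 h in DMSO than at 0 h, with a median of -0.25. Over all tested genes 30.3% were lower and 29.2% higher. Eif3d, a subunit of the initiation factor that binds the small subunit, had a log2 fold change of -0.50 (limma adjusted p = 5.57e-07). At 24 h 12 translation factors were lower with atRA (0 higher), 23 with 9cisRA (2 higher) and 15 with RXRi (3 higher). Their medians were -0.11 with atRA, -0.18 with 9cisRA and -0.07 with RXRi. Of all tested genes 18.6% were lower with atRA, 23.5% with 9cisRA and 30.4% with RXRi, so the RXRi count was near the background. Eif3f, of the same factor, was higher with RXRi (0.38, limma adjusted p = 7.76e-06). Of 78 mitochondrial ribosomal proteins, 49 were lower and 3 higher at 24 h in DMSO than at 0 h, with a median of -0.22. At 24 h 19 of them were lower with atRA, 28 with 9cisRA and 35 with RXRi, with medians of -0.07 with atRA, -0.09 with 9cisRA and -0.14 with RXRi, and the atRA count was near the 18.6% of all tested genes. Of 26 regulators of mTOR and TOP messages, 9 were lower and 7 higher at 24 h in DMSO than at 0 h, near the 30.3% lower and 29.2% higher of all tested genes, with a median of 0.02. At 24 h 6 were lower and 4 higher with atRA, 6 lower and 5 higher with 9cisRA, and 7 lower and 6 higher with RXRi, again near the shares of all tested genes. Eif4ebp1, which binds the cap-binding factor when mTOR is inactive, averaged 130.9 ± 3.27 RPKM with RXRi and 65.7 ± 4.30 RPKM in DMSO at 24 h (SD, n = 2 mice), a log2 fold change of 0.99 (limma adjusted p = 6.52e-09). Sesn1, an upstream inhibitor of mTOR complex activity, fell with RXRi (-1.44, limma adjusted p = 5.61e-09).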

How the data were processed

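The authors deposited 1 table of RPKM values for 12652 genes and 36 libraries, made from mRNA libraries. Per the submitters' processing notes, bcl2fastq 2.17 and STAR 2.5.2b were used with the genome build mm10. The counting rule, the annotation and the divisor of the RPKM are not given in the sources used here. For 100% of the genes the values were whole multiples of 1 read, within 0.05 reads.

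Genes at 1 RPKM or more in at least 4 libraries were tested (11361, among them all 90 members). Values were log2(RPKM + 0.5), which shrinks the fold changes of low genes, and duplicates of a mouse and condition were averaged to 18 values. One limma 3.58.1 model (R 4.3.3) with a mean per condition, the mouse as a block and an intensity trend (8 residual and 5.01 prior degrees of freedom) was tested in 14 comparisons, two-sided. Adjustment was Benjamini-Hochberg over all tested genes, with calls at an adjusted p below 0.05. The mouse paired the samples because the labels name it, and differences between the mice correlated between conditions (median 0.441, 0.0372 to 0.662). Fold changes are relative to the scaling of each library in the deposited RPKM.

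The members and lists were chosen with earlier results of these data known. Named are the 3 highest and 3 lowest members of each comparison, a panel of ribosomal proteins and paralogs, the paralogs themselves and the 2 genes with the smallest p of each other list. Others were chosen after their values were seen or are the whole of a small count. The former include Rps20 and Rps3a1 with the compounds at 24 h, and Rps28 at 24 h over 0 h in DMSO. Calls of members outside the named set of a comparison were not checked singly under the alternatives. Alternatives changed the pseudocount, filter, scaling, mouse block, averaging of duplicates and trend, and left out each library and mouse. The corrections for gene length and GC content were added after the data were seen. Gene positions and promoters are those of RefSeq on GRCm38.p6, matched by gene identifier. Rpl3l, Rpl10l and Rpl39l were not analysed here, and the values of a few genes that the rule would name are not reported here.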

Additional observations from a re-analysis of the deposited data

Results flagged for a closer look

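In 4 of 171 sets of 4 libraries (named members by condition), 1 library lay apart from the other 3 past Dixon's 95% critical value, where chance flags about 1 in 20. Rps2 stood at 192 RPKM in the second duplicate of mouse 2 at 24 h in DMSO (the others at 211 to 214 RPKM) and at 359 RPKM in the first duplicate of mouse 1 at 0 h (the others at 295 to 303 RPKM). Rplp2 stood at 243 RPKM in the first duplicate of mouse 2 with atRA at 24 h (the others at 277 to 284 RPKM). Rpl3 stood at 151 RPKM in the first duplicate of mouse 1 with RXRi at 24 h (the others at 155 RPKM).

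For 9 results the effect of a compound over DMSO differed between 24 h and 6 h by limma's test of that difference, on the log2 scale. They made up 1.11% of the members for atRA, 6.67% for 9cisRA and 2.22% for RXRi. These shares were not above the 7.11, 7.9 and 16.5% of all tested genes that were lower. Rpl22l1 differed by -0.41 for atRA, by -0.50 for 9cisRA (limma adjusted p = 0.00559) and by -0.45 for RXRi. For 9cisRA, Rps20 differed by -0.34 (limma adjusted p = 0.00807), Rps3a1 by -0.32 (limma adjusted p = 0.0255), Rpl5 by -0.30 (limma adjusted p = 0.0208), Rps18 by -0.24 (limma adjusted p = 0.03) and Rps4x by -0.24 (limma adjusted p = 0.0354). For RXRi, Rps27l differed by -0.39 (limma adjusted p = 0.0185). Rps4l, typed as a pseudogene, separated the 2 mice in every condition, with medians of 23.2 RPKM in mouse 1 and 11.1 RPKM in mouse 2.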

How the results depend on the processing

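All 90 members passed every filter tried, and the mice, n = 2, limit each test. None of the 76 calls on single members that were checked turned its direction under any setting. Counts of members called moved most with the scaling. Scaled to the same RPKM sum they were 77 with atRA (33 in the report) and 81 with 9cisRA (47) at 24 h, 76 for 24 h over 6 h in DMSO (29) and 0 with RXRi at 6 h, and for the change of effect 22 with atRA, 60 with 9cisRA and 4 with RXRi. That scaling also lowered the median of all genes to -0.12 with atRA and -0.13 for 24 h over 6 h in DMSO, so such counts hold a shift of all genes. Scaled to the RPKM sum of other genes they were 78 with atRA and 82 with 9cisRA at 24 h, 80 for 24 h over 6 h in DMSO, 1 with atRA and 0 with RXRi at 6 h, and for the changes 25 with atRA, 64 with 9cisRA and 4 with RXRi. Under quantile normalization they were 67 with atRA and 76 with 9cisRA at 24 h, 74 for 24 h over 6 h in DMSO, 1 with atRA and 0 with RXRi at 6 h, and for the changes 16 with atRA, 34 with 9cisRA and 4 with RXRi. A mean of at least 5 RPKM gave 1 with atRA at 6 h. Without the mouse block the count with atRA at 24 h was 18, that of 9cisRA over atRA at 6 h was 0, and that of the change with RXRi was 1; the block changed no other count by over 1.5 times. With 36 libraries as samples they were 2 with atRA at 6 h, 5 for 9cisRA over atRA at 6 h, and for the changes 3 with atRA, 13 with 9cisRA and 4 with RXRi. With the length correction they were 20 for 6 h over 0 h in DMSO (37), 68 for 24 h over 6 h, and for the changes 6 with atRA, 16 with 9cisRA and 5 with RXRi. With length and GC content they were 18 for 6 h over 0 h in DMSO and 71 for 24 h over 6 h, for the changes 4 with atRA, 18 with 9cisRA and 5 with RXRi, 2 each with atRA and 9cisRA at 6 h and 1 for 9cisRA over atRA at 6 h. The cause of these differences was not tested.

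As RPKM sums in place of shares, members stood at 98.1% of DMSO with 9cisRA and 96.5% with RXRi at 6 h, at 91.8% with atRA and 91.4% with 9cisRA at 24 h, and for DMSO at 79.5% for 24 h over 0 h and 89.3% for 24 h over 6 h. Among single members not called in the report, those that passed the threshold with the opposite sign under some setting were, for 24 h over 6 h in DMSO, Rpl36al (-0.14 scaled to other genes, -0.13 with length, -0.18 with length and GC content) and Rpl7l1 (-0.13 scaled to other genes).

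With each library or mouse left out, counts ran from 0 to 14 with atRA, 0 to 5 with 9cisRA and 0 to 2 with RXRi at 6 h, and from 1 to 40 with atRA, 27 to 53 with 9cisRA and 12 to 24 with RXRi at 24 h. They ran from 0 to 13 and 0 to 1 for 9cisRA over atRA at 6 h and 24 h, and in DMSO from 7 to 56 (6 h over 0 h), 54 to 83 (24 h over 0 h) and 19 to 48 (24 h over 6 h). Changes ran from 0 to 4 with atRA, 1 to 13 with 9cisRA and 1 to 3 with RXRi. Shares relative to DMSO ran from 91.9 to 97.4% with atRA, 94.97 to 99.0% with 9cisRA and 98.6 to 100.3% with RXRi at 6 h, and from 80.8 to 86.7% with atRA, 77.8 to 84.3% with 9cisRA and 92.4 to 98.3% with RXRi at 24 h. In DMSO they ran from 87.3 to 91.2% (6 h over 0 h), 71.3 to 74.7% (24 h over 0 h) and 80.0 to 83.5% (24 h over 6 h).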
